A study of Rattus norvegicus with 22 samples.

Results

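Microglia genes were examined in RNA from the nucleus accumbens (NAc), a forebrain region that takes part in reward. The set comprises 36 genes given by symbol, and all 36 were among the 17310 gene symbols of the count files. Whole tissue of the NAc core and shell from 22 male outbred Wistar rats was sequenced as polyA+ RNA in 2 experiments. In experiment 1, 5 rats had only water to drink (water group) and 5 had a bottle of 6 v/v % ethanol (EtOH) beside water for 8 weeks (EtOH group). In experiment 2, all 12 rats had 6% EtOH and water to drink for 4 weeks before and 2 weeks after a period of 3 weeks of gavage, in which fluid is given by tube into the stomach. During that period 6 of these rats received EtOH by gavage at 2.5 g/kg, 2 times daily (EtOH gavage group), and the other 6 received water by gavage (water gavage group). Experiment 2 therefore holds no rat that never drank EtOH. Rats were killed within minutes of removal of the EtOH bottles. In whole tissue, fewer microglia and less RNA per microglial cell cannot be told apart.

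Microglia are the resident macrophages of the brain. They depend on signalling through the receptor Csf1r and on the transcription factors Spi1 (PU.1) and Irf8, and they survey the tissue with receptors such as Cx3cr1, which binds fractalkine from neurons, and P2ry12, which senses ADP. They produce the C1q proteins that start the classical complement pathway. Many of their activating receptors signal through adaptors with an immunoreceptor tyrosine-based activation motif (ITAM), such as Tyrobp and Fcer1g, to the kinase Syk, the linker Blnk and the phospholipase Plcg2.

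Between 2962291 and 5247386 reads per rat were counted on genes in experiment 1, and between 6713617 and 8765472 in experiment 2. Levels are given as CPM, a gene's count divided by the reads of the rat and brought to a common depth. They depend on transcript length, so they are compared between rats and never between genes. Genes were tested where their mean count lay above the median of all listed genes, which left 8655 genes per experiment. Of the 36 microglia genes, 19 passed this filter in experiment 1, 21 in experiment 2 and 18 in both. The untested members were those with few reads, and 34 members had at least 1 read in every rat. Cd86 had no read in water rat 2, where 3 reads would have been 0.813 CPM, and Irf8 had none in EtOH gavage rat 1, where 3 reads would have been 0.435 CPM. These limits cover counting error only. Cx3cr1, P2ry12, Tmem119 and Csf1r, which mark microglia, were detected in every rat. The summed level of the 6 listed markers of perivascular macrophages (Mrc1 and others) was 7.32 to 12.5 CPM in the water group, 8.44 to 19.6 CPM in the EtOH group, 4.998 to 17.1 CPM in the water gavage group and 8.65 to 44.9 CPM in the EtOH gavage group. The 11 listed markers of blood leukocytes summed to at most 1.75 CPM in experiment 1 and 16.2 CPM in experiment 2, and Cd3g was at 0 in all 22 rats.

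Spi1 binds DNA at purine-rich sites with a GGAA core, and the 250 bases upstream of the annotated start were searched for GAGGAA, a form of such a site, on both strands. RefSeq sequences on build GRCr8 were found for 23 of the 36 genes. GAGGAA was present in 15 of these 23 (65.2%), compared with 23.1% of 21851 promoters. The longer AGAGGAAG, which contains it, was present in 4 of 23 (17.4%) and in 3.51% of all promoters, and GAGGAAGT in 3 of 23 (13%) and in 2.03%. The motifs were chosen after earlier results were known, and a match is a string of letters, not a shown binding site. The upstream sequences of 5 genes, picked by hand among those described below, are given 5′ to 3′ with GAGGAA or its reverse complement in capitals. They lie at chr5:154407828-154408077 on the minus strand (C1qb), chr1:192089342-192089591 on the plus strand (Itgam), chr5:148371630-148371879 on the plus strand (Laptm5), chr1:249770534-249770783 on the minus strand (Blnk) and chr1:218876644-218876893 on the plus strand (Mpeg1).
C1qb: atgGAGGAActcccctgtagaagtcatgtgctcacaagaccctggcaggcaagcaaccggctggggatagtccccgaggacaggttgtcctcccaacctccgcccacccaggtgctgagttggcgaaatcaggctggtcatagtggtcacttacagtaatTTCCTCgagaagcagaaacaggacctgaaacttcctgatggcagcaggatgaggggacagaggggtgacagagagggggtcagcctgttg
Itgam: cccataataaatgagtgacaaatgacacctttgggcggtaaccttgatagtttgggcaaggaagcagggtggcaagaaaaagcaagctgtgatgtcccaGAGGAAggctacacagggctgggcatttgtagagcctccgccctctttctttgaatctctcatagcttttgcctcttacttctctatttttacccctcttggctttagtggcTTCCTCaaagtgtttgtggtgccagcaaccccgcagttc
Laptm5: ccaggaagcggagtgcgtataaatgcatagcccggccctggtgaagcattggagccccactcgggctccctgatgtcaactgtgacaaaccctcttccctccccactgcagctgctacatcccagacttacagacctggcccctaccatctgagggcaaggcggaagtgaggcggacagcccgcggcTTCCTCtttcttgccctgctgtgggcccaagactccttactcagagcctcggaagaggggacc
Blnk: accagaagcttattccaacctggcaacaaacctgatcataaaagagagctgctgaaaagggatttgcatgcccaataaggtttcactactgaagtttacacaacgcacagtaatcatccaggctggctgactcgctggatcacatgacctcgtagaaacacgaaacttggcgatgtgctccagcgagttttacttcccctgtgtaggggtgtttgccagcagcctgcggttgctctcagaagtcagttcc
Mpeg1: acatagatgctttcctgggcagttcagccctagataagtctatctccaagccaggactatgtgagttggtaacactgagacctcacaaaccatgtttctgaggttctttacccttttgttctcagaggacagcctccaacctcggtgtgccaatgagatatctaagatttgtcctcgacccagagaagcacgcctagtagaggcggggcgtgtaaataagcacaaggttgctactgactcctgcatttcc
C1qb and Itgam each had 2 matches, with 241 and 84 bases between the match and the start for C1qb and 145 and 33 bases for Itgam. Laptm5 had 1 match, 57 bases from the start. Blnk and Mpeg1 had none in this window.

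No microglia gene differed between groups at a false discovery rate (FDR) under 0.05 in either experiment, and neither did any other gene tested, by the quasi-likelihood test of edgeR after Benjamini-Hochberg adjustment or by DESeq2. In experiment 1, 2 of the 19 tested microglia genes had an unadjusted P-value under 0.05, Inpp5d and Fcer1g, and both were higher in the EtOH group. Among all 8655 genes tested, 483 (5.58%) had such a P-value, 3% being higher and 2.58% lower. The log2 fold change was below 0 for 11 of the 19 genes, against 50.5% of all genes, and its median was -0.02, against -0.001 for all genes. In experiment 2, 1 of the 21 tested genes had an unadjusted P-value under 0.05, Blnk, which was lower in the EtOH gavage group. Among all genes 115 (1.33%) had such a P-value, and 0.624% were lower. The log2 fold change was below 0 for 16 of the 21 genes, with a median of -0.27, against 49.9% of all genes and a median of 0.001. DESeq2 at its default settings tested all 36 microglia genes and gave an unadjusted P-value under 0.05 for 1 in experiment 1 and 2 in experiment 2, among 632 of 14024 and 315 of 14121 genes. The groups of rats overlapped for every microglia gene in both experiments, while 0.843% of all genes in experiment 1 and 0.0116% in experiment 2 had groups that did not overlap.

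The counts of genes with an unadjusted P-value under 0.05 depended on single rats. In experiment 1 the count of microglia genes was 0 without EtOH rat 4, 1 without water rat 3 and 4 without EtOH rat 1. Of all 8655 genes, 378, 445 and 500 had such a P-value in these fits, against 483 with all rats. In experiment 2 the count of microglia genes was 0 without water gavage rat 5, where Blnk no longer passed the filter. Of all genes, 134 had such a P-value in that fit. The count of microglia genes was 5 without water gavage rat 1 (Blnk, C1qa, C1qb, Fcer1g and Arhgdib). Without that rat the count over all 8655 genes also rose, from 115 to 776. For the microglia genes it was 3 without EtOH gavage rat 4, where 768 of all genes had such a P-value, and 2 without EtOH gavage rat 3 or 5.

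**Figure D1:**
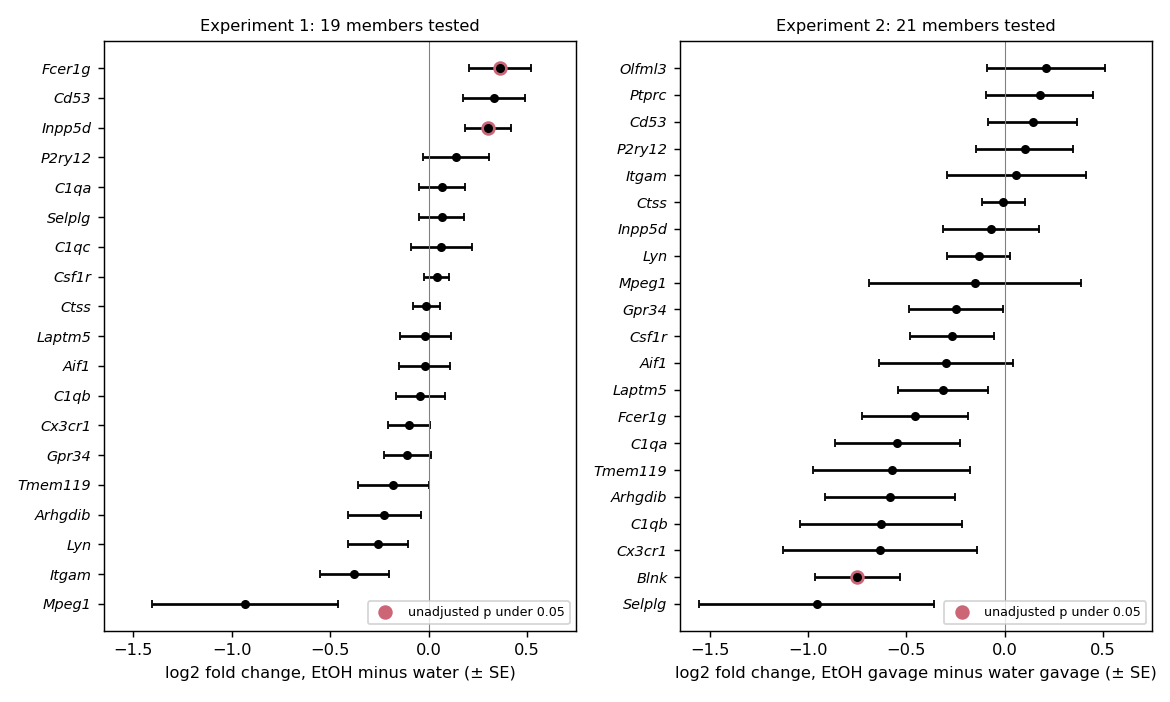
Log2 fold changes (x axis, with standard errors as bars) of the tested microglia genes (y axis, ordered by fold change) for EtOH against water in experiment 1 (left, 19 genes) and EtOH gavage against water gavage in experiment 2 (right, 21 genes). Red circles mark unadjusted P-values under 0.05, which none of these genes kept after adjustment. In experiment 2, 16 of 21 points lie below 0, and bars are longer than in experiment 1.

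A group of genes of surveying microglia comprised surface receptors and Tmem119, Selplg and Olfml3. It showed no difference in experiment 1 and mostly lower means after EtOH gavage, within wide spreads between rats. Of the 8 genes of this group, 6 were tested in experiment 1, with 3 above and 3 below 0, and 7 in experiment 2, with 5 below 0, and none had an unadjusted P-value under 0.05. For Cx3cr1, the fractalkine receptor, water rats 1 to 5 had 35.7, 35.8, 33.5, 32.5 and 34.3 CPM, and EtOH rats 32.6, 38.5, 29.4, 26.5 and 33.3 CPM. The water rats lay close together, inside the range of the EtOH rats, and the log2 fold change was -0.10 (SE 0.11, FDR = 0.957). In experiment 2 the lowest, median and highest levels of Cx3cr1 were 4.94, 18.7 and 26.6 CPM after water gavage and 3.04, 11.1 and 26.5 CPM after EtOH gavage. Both groups held rats with low and rats with high levels, and the log2 fold change of -0.63 had an SE of 0.49 (FDR = 0.675).

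Csf1r, the receptor for Csf1 and Il34 on which microglia depend for survival, was the steadiest tested microglia gene of experiment 1, with an SD of 0.08 within groups on the log2 scale. Its levels were 162, 187, 166, 159.5 and 163 CPM in water rats and 179, 163, 165, 177 and 179 CPM in EtOH rats, so the groups overlapped (log2 fold change 0.04, SE 0.06). Water gavage rats ranged from 117 to 235 CPM with a median of 170.1, and EtOH gavage rats from 73.1 to 189 CPM with a median of 153. In experiment 2 its log2 fold change was -0.27 (SE 0.21, FDR = 0.675), and without EtOH gavage rat 1, the lowest rat, it was -0.13. P2ry12, the ADP receptor that guides microglial processes to injury, had fold changes above 0 in both experiments. It had 21.98, 34.1, 22.3, 16.3 and 18.9 CPM in water rats and 27.4, 22.2, 25.9, 25.7 and 24.2 CPM in EtOH rats, and EtOH rats lay within the range of the water rats. In experiment 2 it ranged from 21.2 to 35.8 CPM (median 33.8) after water gavage and from 21.4 to 57.4 CPM (median 28.5) after EtOH gavage. Its log2 fold changes were 0.14 (SE 0.17) and 0.10 (SE 0.25), and without EtOH gavage rat 1, the rat at 57.4 CPM, that of experiment 2 was -0.12.

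Tmem119, a membrane protein used as a microglial marker, had 21.6, 36.9, 32.1, 30.8 and 26.5 CPM in water rats and 16.8, 23.2, 24.8, 31.4 and 34.4 CPM in EtOH rats. The groups overlapped over most of their range (log2 fold change -0.18, SE 0.18). In experiment 2 the lowest, median and highest levels were 8.08, 19.3 and 25.7 CPM after water gavage and 4.52, 12.4 and 22.2 CPM after EtOH gavage (log2 fold change -0.58, SE 0.40, FDR = 0.675). Selplg, which encodes a ligand of P-selectin, had the most negative fold change of the 21 tested microglia genes in experiment 2, -0.96, with the widest standard error, 0.60 (FDR = 0.675). Its levels reached from 2.23 to 24.2 CPM after water gavage and from 1.01 to 11.8 CPM after EtOH gavage, and the groups overlapped. In experiment 1 Selplg differed little, with 34.8 ± 4.90 CPM (SD, n = 5) in water rats and 36.2 ± 3.42 CPM (SD, n = 5) in EtOH rats. Gpr34, a receptor for lysophosphatidylserine, had log2 fold changes of -0.11 (SE 0.12) and -0.25 (SE 0.24). Olfml3, a secreted glycoprotein, was tested in experiment 2 only (0.21, SE 0.30), and P2ry13, a further ADP receptor, passed the filter in neither, with 12 to 68 reads per rat.

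The complement genes C1qa and C1qb, whose products are chains of the same C1q molecule, overlapped between groups with small fold changes in experiment 1 and had lower means after EtOH gavage in experiment 2. In experiment 1 C1qa had 36.1, 52.8, 38.8, 45.3 and 34.9 CPM in water rats and 44.9, 39.6, 45.1, 41.7 and 46.1 CPM in EtOH rats (log2 fold change 0.07, SE 0.12). C1qb had 32.3, 26.6, 29.0, 27.0 and 26.5 CPM in water rats and 34.3, 23.5, 23.6, 29.2 and 27.1 CPM in EtOH rats (-0.04, SE 0.12). C1qc, a further chain, had 19.2, 18.2, 13.7, 14.5 and 14.2 CPM in water rats and 15.1, 12.9, 16.8, 18.9 and 19.0 CPM in EtOH rats (0.07, SE 0.16). For each of these genes the EtOH rats lay among the water rats or around them.

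After gavage, the lowest, median and highest levels of C1qa were 15.2, 27.1 and 44.1 CPM with water and 9.57, 18.4 and 36.5 CPM with EtOH, and the log2 fold change was -0.55 (SE 0.32, FDR = 0.675). Those of C1qb were 6.94, 20.9 and 31.2 CPM with water and 3.62, 14.2 and 22.5 CPM with EtOH (-0.63, SE 0.41, FDR = 0.675). C1qc, below the filter there, had 2.53, 4.74 and 9.82 CPM with water and 1.10, 2.68 and 5.77 CPM with EtOH, on 7 to 73 reads. The groups overlapped for every chain, and for each chain the lowest rat was EtOH gavage rat 1 or 2. When all genes with any read were tested, C1qc had an unadjusted P-value under 0.05, with a log2 fold change of -0.90 (SE 0.42, FDR = 0.702). Of the 14121 genes then tested, 286 had such a P-value.

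Itgam (CD11b), the integrin chain that with Itgb2 forms complement receptor 3, was the complement gene closest to the threshold in experiment 1. Water rats had 19.9, 20.9, 23.7, 20.8 and 33.6 CPM and EtOH rats 26.1, 17.7, 16.6, 15.7 and 17.5 CPM. All EtOH rats but rat 1 were below all water rats, and the log2 fold change was -0.38 (SE 0.18, P = 0.0504, FDR = 0.866, exact two-sided permutation P = 0.103). It was -0.51 (FDR = 0.789) without EtOH rat 1 and -0.21 (FDR = 0.791) without water rat 5, which alone had 33.6 CPM. In experiment 2 Itgam had 9.89, 15.1 and 27.6 CPM (lowest, median, highest) after water gavage and 5.65, 17.6 and 27.7 CPM after EtOH gavage (0.06, SE 0.35), and no direction could be read. Itgb2 passed the filter in neither experiment, at 11.5 ± 2.62 and 9.31 ± 2.20 CPM in the water and EtOH groups (SD, n = 5) and 7.26 ± 2.82 and 5.11 ± 1.81 CPM after water and EtOH gavage (SD, n = 6).

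Of the 10 ITAM signalling genes, 3 were tested in experiment 1 and 2 of them had an unadjusted P-value under 0.05, both higher, against 5.58% of all genes. In experiment 2, 4 were tested and 1 had such a P-value, being lower, against 1.33% of all genes. Whether this group differs from the other microglia genes was not tested. Inpp5d (SHIP1), a lipid phosphatase that restrains signalling by phosphoinositide 3-kinase, had 24.0, 19.2, 23.1, 22.2 and 26.0 CPM in water rats and 25.0, 25.6, 28.5, 31.1 and 31.2 CPM in EtOH rats. Only water rat 5 was above any EtOH rat, and the fold change was 0.30 (SE 0.12, P = 0.0212, FDR = 0.861, exact two-sided permutation P = 0.0238, for which the smallest possible value is 0.00794). Fcer1g, the ITAM-bearing gamma chain of Fc receptors, had 10.7, 13.6, 9.23, 11.8 and 12.5 CPM in water rats and 13.4, 14.0, 12.4, 16.5 and 17.8 CPM in EtOH rats. The overlap came from water rats 2 and 5 and EtOH rats 1 and 3, with a fold change of 0.36 (SE 0.16, P = 0.0378, FDR = 0.866, exact two-sided permutation P = 0.0397). When all genes with any read were tested, the unadjusted P-value of Fcer1g was above 0.05, as it was in DESeq2, and Inpp5d, Itgam and Mpeg1 had one under 0.05. Of the 14024 genes then tested in edgeR, 820 had an unadjusted P-value under 0.05.

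In experiment 2 neither gene had a higher mean in the EtOH gavage group. Inpp5d had 17.6, 27.3 and 35.5 CPM after water gavage and 18.6, 21.3 and 40.1 CPM after EtOH gavage (lowest, median, highest), with a log2 fold change of -0.07 (SE 0.24). Fcer1g had 12.5, 23.2 and 25.0 CPM after water gavage and 7.36, 15.7 and 24.2 CPM after EtOH gavage, with a log2 fold change of -0.46 (SE 0.27, FDR = 0.675). The groups overlapped for both genes.

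Blnk, the adaptor that links Syk to Plcg2 and is best known from B cells, had the lowest P-value of all 8655 genes tested in experiment 2. Water gavage rats 1 to 6 had 7.07, 13.7, 13.7, 11.1, 14.5 and 10.9 CPM, and EtOH gavage rats 6.38, 5.32, 8.53, 5.77, 8.43 and 7.67 CPM, on 34 to 104 reads. All water gavage rats but rat 1 were above all EtOH gavage rats, and the log2 fold change was -0.75 (SE 0.22, P = 0.00392, FDR = 0.675, exact two-sided permutation P = 0.00866, for which the smallest possible value is 0.00216). Blnk was near the filter, and without water gavage rat 5 it fell below it and was not tested. In the 11 fits that left out another rat, its log2 fold change was between -0.86 and -0.68. In experiment 1 Blnk was below the filter, with 7.90, 10.8, 7.50, 6.92 and 7.80 CPM in water rats and 8.91, 6.86, 6.54, 11.1 and 5.84 CPM in EtOH rats on 20 to 41 reads, and the groups overlapped.

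**Figure D2:**
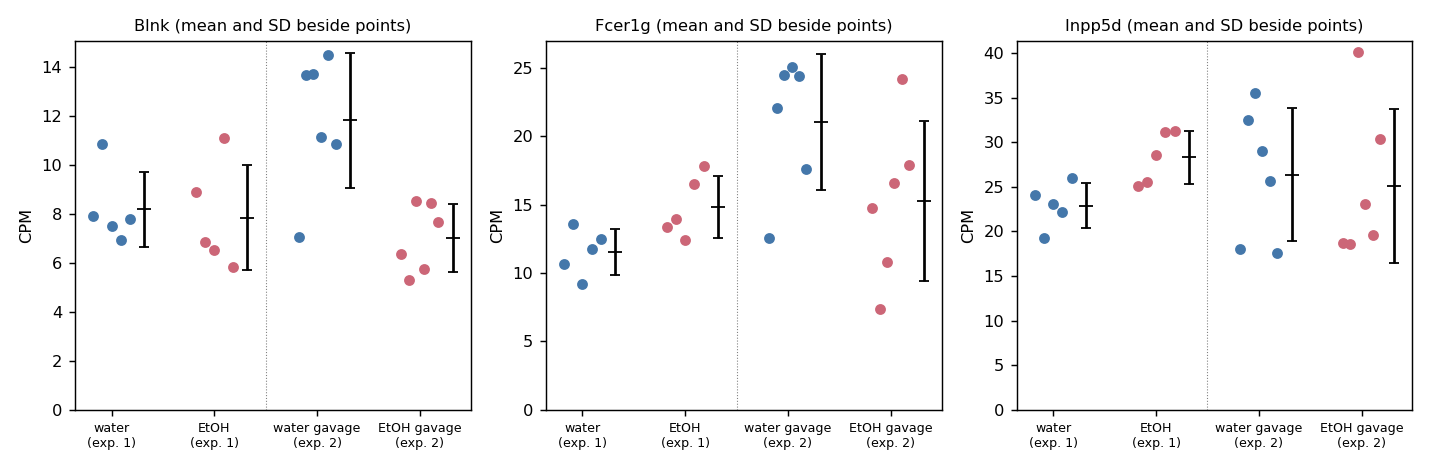
CPM (y axis, from 0) of Blnk, Fcer1g and Inpp5d in each rat (points) of the 4 groups (x axis), with the group mean and SD beside the points. EtOH rats of experiment 1 are mostly above water rats for Fcer1g and Inpp5d, and EtOH gavage rats are below all water gavage rats but 1 for Blnk.

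The other ITAM genes were at low counts or had small fold changes. Lyn, a Src family kinase, had log2 fold changes of -0.26 (SE 0.15, FDR = 0.898) in experiment 1 and -0.13 (SE 0.16, FDR = 0.694) in experiment 2. Tyrobp (DAP12) had 5.84, 11.4, 5.96, 6.92 and 8.97 CPM in water rats and 9.26, 7.65, 4.44, 7.04 and 6.13 CPM in EtOH rats, and its partner receptor Trem2 had 7.90, 7.86, 9.42, 5.88 and 12.5 CPM and 7.20, 14.0, 7.94, 8.66 and 6.13 CPM. Neither passed the filter, and the groups overlapped throughout. In experiment 2 Tyrobp had 1.73, 5.37 and 7.94 CPM after water gavage and 1.45, 2.81 and 5.50 CPM after EtOH gavage (lowest, median, highest). Trem2 had 1.73, 7.42 and 11.7 CPM after water gavage and 0.16, 2.81 and 11.7 CPM after EtOH gavage. EtOH gavage rat 4 was close to the highest water gavage rat for Trem2, while EtOH gavage rat 2 had 1 read of it. Syk, Plcg2, Vav1 and Fcgr2b, the inhibitory Fc receptor, passed the filter in neither experiment, with between 3 and 81 reads per rat.

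Among the lysosomal and antigen-presenting genes, Ctss (cathepsin S) had group means that lay within its spread in each experiment, and Mpeg1 was nearly absent from 3 rats. Ctss had 225 ± 18.6 CPM in water rats and 223 ± 13.7 CPM in EtOH rats (SD, n = 5), and 230.4 ± 34.1 CPM after water gavage and 229 ± 16.1 CPM after EtOH gavage (SD, n = 6), with log2 fold changes of -0.01 (SE 0.07) and -0.01 (SE 0.11). It was the steadiest tested microglia gene of experiment 2, with an SD of 0.16 within groups on the log2 scale. Laptm5, a lysosomal membrane protein of leukocytes, had log2 fold changes of -0.02 (SE 0.13) and -0.315 (SE 0.23, FDR = 0.675).

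Mpeg1, which encodes the macrophage pore-forming protein perforin-2, had 73.2, 71.8, 61.9, 116 and 67.5 CPM in water rats and 3.43, 67.3, 7.01, 56.3 and 67.1 CPM in EtOH rats. EtOH rats 1 and 3, with 3.43 and 7.01 CPM, lay far below the other 3 EtOH rats. The log2 fold change of -0.93 (SE 0.47, P = 0.0672, FDR = 0.866, exact two-sided permutation P = 0.0397) was -0.66 without EtOH rat 1 and -0.64 without EtOH rat 3. In experiment 2, a water gavage rat (rat 2) had 4.60 CPM on 35 reads, and the other 11 rats had 50.4 to 173 CPM (log2 fold change -0.15, SE 0.54, and -0.41 without that rat). Other microglia genes lay at either end in these rats. EtOH rat 1 had the highest level of Itgam and Laptm5 in its group and the lowest of Tmem119. EtOH rat 3 had the highest level of Ctss in its group and the lowest of Aif1. Water gavage rat 2 had the highest level of C1qa and C1qb in its group and the lowest of Ptprc. Whether low Mpeg1 goes with the level of other microglia genes was not tested. Mpeg1 had the largest spread of all tested microglia genes in both experiments, with SDs of 1.42 and 1.48 within groups on the log2 scale.

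Cd74, the invariant chain that escorts class II major histocompatibility complex (MHC) molecules, stood apart in 1 rat. Water gavage rat 3 had 62.3 CPM on 463 reads, and the other rats of experiment 2 had 0.43 to 10.6 CPM, with medians of 2.89 CPM in the other 5 water gavage rats and 1.27 CPM after EtOH gavage. In experiment 1, Cd74 had 5.15, 2.98, 3.08, 3.81 and 5.07 CPM in water rats and 2.40, 3.16, 7.94, 5.41 and 4.09 CPM in EtOH rats. The class II genes RT1-Da, RT1-Ba, RT1-Bb and RT1-Db1, named after the values were seen, were highest in the same rat, at 26.9, 6.59, 9.15 and 2.83 CPM against next highest values of 4.15, 0.86, 1.92 and 0.73 CPM. Reads that align to several of these related genes are not in the counts. Of all genes, Cd74 ranked 4 by the gap on the log2 scale between this rat and the next highest rat, with Acsm5, an acyl-CoA synthetase (24.5 against 3.47 CPM), at rank 1. Cd68, a lysosomal glycoprotein, had at most 20 reads per rat, with 0.69 to 1.54 and 0.29 to 1.37 CPM in the water and EtOH groups. After water gavage it had 0.42, 1.14 and 2.67 CPM and after EtOH gavage 0.29, 0.63 and 1.01 CPM (lowest, median, highest), with an exact two-sided permutation P of 0.0455 on 2 to 20 reads. When all genes with any read were tested in edgeR, Cd68 had an unadjusted P-value of 0.0594 there (FDR = 0.702). Cd86 and Ly86 also stayed below the filter.

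**Figure D3:**
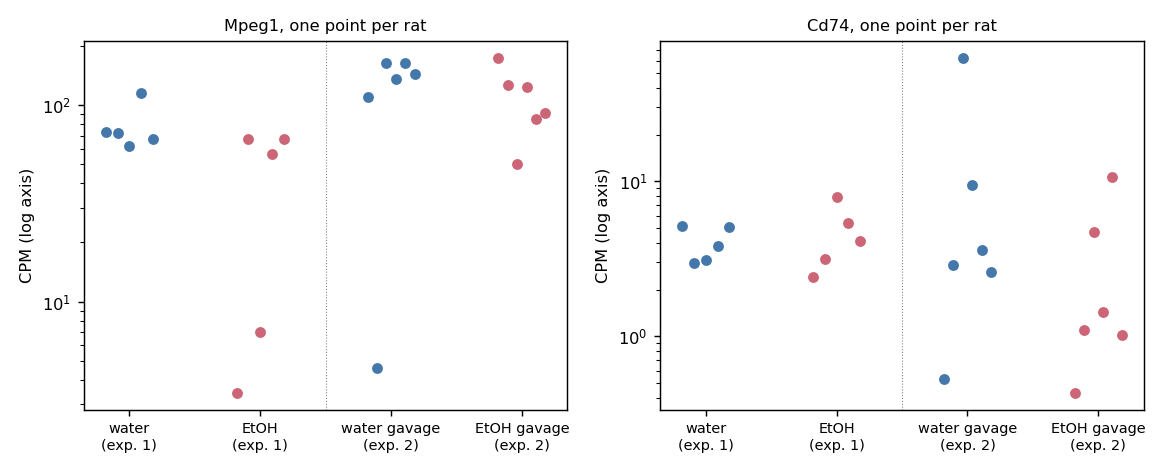
CPM on a log axis of Mpeg1 (left) and Cd74 (right) in each rat (points) of the 4 groups (x axis). Mpeg1 is at 3.43 and 7.01 CPM in 2 EtOH rats and at 4.60 CPM in 1 water gavage rat, far below the others, and Cd74 is at 62.3 CPM in 1 water gavage rat.

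The transcription factors Spi1 and Irf8, which direct the macrophage programme, were at low counts. Spi1 had 1.03, 4.33, 4.04, 2.77 and 5.46 CPM in water rats and 4.11, 1.58, 3.97, 5.95 and 4.09 CPM in EtOH rats, and Irf8 had 4.12, 4.33, 4.81, 5.54 and 6.05 CPM and 7.54, 5.54, 3.74, 4.87 and 6.13 CPM. In experiment 2 Spi1 had 0.27 to 2.24 CPM after water gavage (median 1.62) and 0.14 to 2.45 CPM after EtOH gavage (median 0.81), on 1 to 17 reads. Irf8 had 0.28 to 3.36 CPM (median 2.04) and 0 to 1.92 CPM (median 1.24), on 0 to 25 reads. The groups overlapped throughout.

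Genes shared with other leukocytes gave no common direction. Aif1 (IBA1), an actin-binding protein widely used to stain microglia, had 28.9, 23.6, 26.0, 30.8 and 22.1 CPM in water rats and 29.8, 26.1, 21.7, 28.1 and 23.1 CPM in EtOH rats (log2 fold change -0.02, SE 0.13). After gavage it had 8.14, 25.6 and 35.9 CPM with water and 10.8, 17.9 and 35.2 CPM with EtOH (lowest, median, highest), and the fold change was -0.30 (SE 0.34, FDR = 0.689). Arhgdib had 19.2, 19.0, 10.8, 17.7 and 15.4 CPM in water rats and 13.03, 13.7, 13.8, 10.6 and 18.1 CPM in EtOH rats (-0.225, SE 0.19). In experiment 2 it had 8.0, 17.99 and 26.5 CPM after water gavage and 4.20, 12.2 and 17.7 CPM after EtOH gavage. After Blnk it had the lowest P-value of the tested microglia genes (-0.58, SE 0.33, FDR = 0.675). Cd53, a tetraspanin, had 15.5, 14.6, 9.81, 12.8 and 14.4 CPM in water rats and 14.4, 15.6, 17.99, 15.7 and 20.1 CPM in EtOH rats (0.33, SE 0.16, FDR = 0.866), and a fold change of 0.14 (SE 0.23) in experiment 2. Ptprc (CD45), the pan-leukocyte phosphatase, was tested in experiment 2 only (0.18, SE 0.27).

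The difference in fold change between the experiments was tested for the 18 microglia genes that passed the filter in both. Fcer1g had the lowest P-value, with a log2 fold change in experiment 2 minus that in experiment 1 of -0.82 (SE 0.34, FDR = 0.813). It was the only one of the 18 with an unadjusted P-value under 0.05, against 1.88% of the 8176 genes tested, of which none had an FDR under 0.05 and 154 an unadjusted P-value under 0.05 in edgeR. The experiments also differed in library preparation, read length and EtOH schedule, which cannot be told apart from the difference. Their control groups differed too, with only water in experiment 1 and EtOH to drink in experiment 2. For lack of a pure water control in experiment 2, the paper calls a direct comparison of its experiments not possible. The test also shared 1 spread per gene, although the common variation between rats fitted by edgeR was 11.1% in experiment 1 and 31.3% in experiment 2.

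The microglia genes varied more between rats of a group than genes in general, and the median correlation between them was low and positive. The comparison was not matched for expression level. The median SD within groups on the log2 scale was 0.21 for microglia genes and 0.16 for all genes in experiment 1, and 0.50 and 0.34 in experiment 2. After removal of group means, the median correlation between 2 microglia genes was 0.14 in experiment 1 (n = 10 rats). It was 0.21 in experiment 2 (n = 12 rats). For all pairs of genes it was -0.001 and 0.001. Positive and negative correlations cancel in such a median, so a value near 0 does not mean that genes in general were uncorrelated. In experiment 2 the first principal component held 74% of the variance. Whether microglia genes vary together more than other genes was not tested. A score, the mean over the 36 genes of each gene's z-score of log2 CPM across the rats of an experiment, was 0.005 ± 0.14 in water rats and -0.005 ± 0.24 in EtOH rats (SD, n = 5). It was 0.24 ± 0.54 after water gavage, from -0.52 to 1.117, and -0.24 ± 0.42 after EtOH gavage, from -0.82 to 0.14 (SD, n = 6). Water gavage rat 3, the rat with high Cd74, had the highest score, and EtOH gavage rats 1 and 2 and water gavage rat 1 had the lowest. Without water gavage rat 3 the difference in score between the groups of experiment 2 was -0.31 instead of -0.47. The median log2 fold change of the microglia genes was -0.16 instead of -0.27, and 14 of 21 genes were below 0. For all genes the median was then -0.002, with 50.3% below 0.

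**Figure D4:**
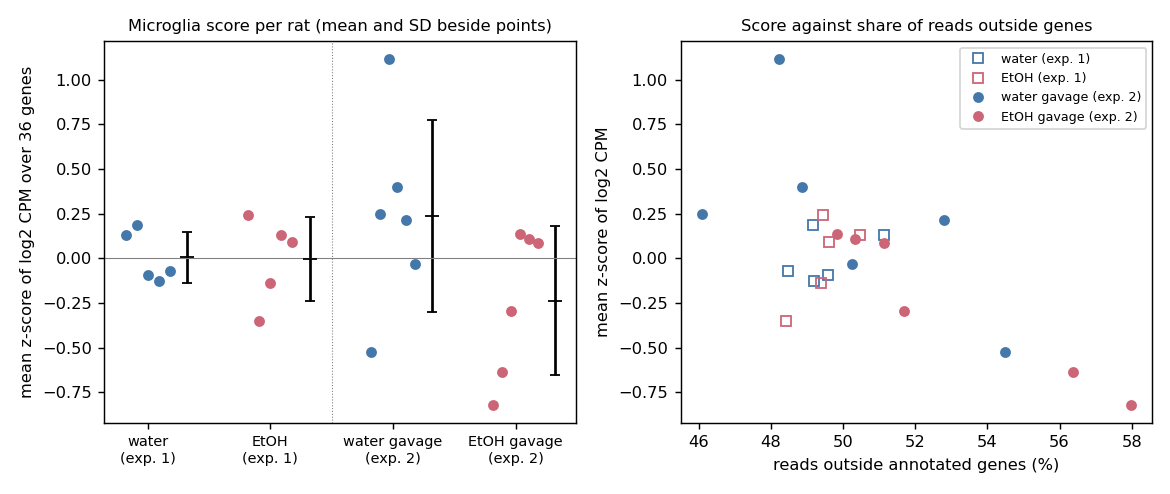
Left, the score of the 36 microglia genes (mean z-score of log2 CPM within an experiment, y axis) in each rat of the 4 groups (x axis), with mean and SD. Right, the score against the share of reads outside annotated genes in percent (x axis), meaning reads that the counting assigned to no gene. Scores are spread from -0.82 to 1.117 in experiment 2, where the rats with the largest share have the lowest scores.

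Rats of experiment 2 also differed in the share of reads assigned to no gene, called outside genes here. Microglia genes with a strong relation to this share all declined with it. The share is that of reads assigned to no gene among these reads and the reads counted on genes. Ambiguous and multi-mapped reads are left out of it. Because the strand option of the counting is not known, these reads need not all lie outside genes. The share was 46.1 to 54.5% after water gavage (50.1 ± 3.09%, SD, n = 6) and 49.8 to 58.0% after EtOH gavage (52.9 ± 3.42%, SD, n = 6), and 48.4 to 51.1% in experiment 1. The first principal component held 74% of the variance of experiment 2 and 26% of that of experiment 1. Over the 12 rats of experiment 2, Pearson's r between log2 CPM and the share was below -0.7 for 8 of the 21 microglia genes (Cx3cr1, C1qa, C1qb, Csf1r, Selplg, Laptm5, Arhgdib and Itgam), against 31.3% of all genes, and above 0.7 for none, against 30.2% of all genes. The count of 8 is close to the share among all genes, but the absence of values above 0.7 is not. The median r was -0.635 for the microglia genes and 0.059 for all genes. It was negative for 14 of the 21 microglia genes, against 48.9% of all genes. Whether microglia genes differ from genes in general in this relation was not tested. In experiment 1 it was above 0.7 for 1 of 19, C1qc, and below -0.7 for none, against 2.48% and 2.47% of all genes. The share and the CPM come from the same reads of the same library. The relation was examined after the data were seen, over 40 correlations.

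The values of single genes are given as a description of genes picked for their r. For Cx3cr1, r was -0.95 (100000 permutations, P = 1e-05, the smallest they can give, adjusted P = 0.0004) and Spearman's rho -0.94 (P = 3e-05, adjusted P = 0.0012). It was -0.93 within the water gavage group, -0.95 within the EtOH gavage group and -0.89 without the 2 rats farthest from the median share. For C1qa, r was -0.93 (permutation P = 2e-05, adjusted P = 0.0004) and rho -0.92 (P = 6e-05, adjusted P = 0.0012), with -0.93 and -0.92 within the groups and -0.86 without the 2 farthest rats. For Csf1r, r was -0.88 (permutation P = 0.00014, adjusted P = 0.0014) and rho -0.91 (P = 9e-05, adjusted P = 0.0012), with -0.82 and -0.91 within the groups and -0.78 without the 2 farthest rats. For C1qb, r was -0.92 (permutation P = 4e-05, adjusted P = 0.000533) and rho -0.86 (P = 0.00062, adjusted P = 0.0062), with -0.84 and -0.955 within the groups and -0.84 without the 2 farthest rats. Other microglia genes did not follow the share to this degree. For Ctss, r was 0.28 (permutation P = 0.376, adjusted P = 0.579) and rho 0.43 (P = 0.172, adjusted P = 0.381), with 0.12 and 0.71 within the groups and 0.11 without the 2 farthest rats. For P2ry12, r was 0.19 (permutation P = 0.56, adjusted P = 0.8) and rho -0.04 (P = 0.903, adjusted P = 0.973), with -0.21 and 0.40 within the groups and -0.20 without the 2 farthest rats.

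The share was added to the fit of experiment 2 as a covariate, an alternative chosen after the data were seen. The median log2 fold change of the 21 microglia genes was then -0.05, with 13 below 0. For all genes the median was -0.011, with 53.9% below 0. The log2 fold change of Cx3cr1 was then 0.06 (SE 0.22), of Csf1r 0.006 (SE 0.13), of C1qa -0.115 (SE 0.16), of C1qb -0.10 (SE 0.22) and of Selplg -0.04 (SE 0.44). That of Blnk was -0.595 (SE 0.205, FDR = 1).

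**Figure D5:**
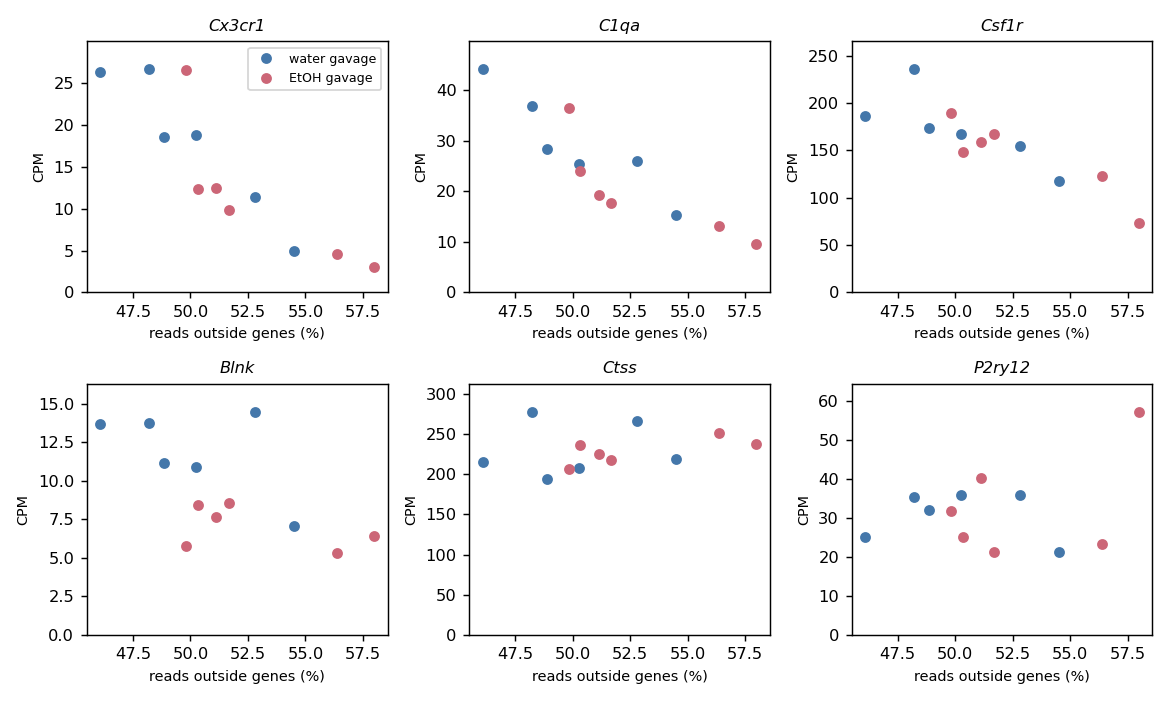
CPM (y axis, from 0) of 6 microglia genes in the 12 rats of experiment 2 against the share of reads outside annotated genes in percent (x axis), with water gavage in blue and EtOH gavage in red. Cx3cr1, C1qa and Csf1r decline with the share in both groups (r from -0.95 to -0.88 over all rats), whereas Ctss and P2ry12 (r of 0.28 and 0.19) do not.

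Ligands and partners of the microglia genes had no unadjusted P-value under 0.05 in either experiment, among 13 tested in experiment 1 and 12 in experiment 2. Il34, a ligand of Csf1r, had the lowest in experiment 1 (44.1 ± 6.16 and 38.6 ± 3.87 CPM, SD, n = 5; log2 fold change -0.19, SE 0.11). Apoe, a lipid carrier that binds Trem2, had the lowest in experiment 2 (458 ± 324 and 240.2 ± 207 CPM, SD, n = 6; -0.93, SE 0.61), and its spread within groups was large. Of 33 further microglia genes listed (lysosomal enzymes, phagocyte oxidase, Toll-like receptors and others), 11 of 13 tested were above 0 in experiment 1 (median 0.05) and 14 of 16 were below 0 in experiment 2 (median -0.225), and none had an unadjusted P-value under 0.05. The lowest were those of Ctsz, cathepsin Z (0.27, SE 0.14), and of Cst3, cystatin C (-0.37, SE 0.20). Of all genes tested, 50.5% were below 0 in experiment 1 and 49.9% in experiment 2. Genes of activated microglia, such as those of cytokines, interferon response and lipid handling, had 0 unadjusted P-values under 0.05 among 8 and 9 tested, with medians of 0.06 and -0.05. Tnf was at 0 reads in all 22 rats, and Nos2 and Ccl4 in all rats of experiment 1.

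Markers of other cell types had fold changes in both directions, and their part in these results was not tested. In experiment 2, 6 of 8 oligodendrocyte genes (median -0.175), 4 of 5 of oligodendrocyte precursors (-0.46), 5 of 6 of endothelium (-0.18), 3 of 8 of astrocytes (0.025), 5 of 12 of neurons (0.05), 2 of 4 of mural cells and fibroblasts (0.29) and 0 of 3 of neuroblasts (0.36) were below 0, against 49.9% of all genes. Adora2a, the adenosine receptor of indirect-pathway neurons, was the only gene of these lists with an unadjusted P-value under 0.05 there (log2 fold change -0.54, SE 0.24, FDR = 0.675). In experiment 1, where the microglia genes had a median of -0.02, all 3 tested neuroblast genes (Dcx, Dlx1 and Cd24) and 2 of 6 endothelial genes had higher levels with unadjusted P-values under 0.05, as had 1 gene each of astrocytes, oligodendrocyte precursors, mural cells and ependyma (Gjb6, Pdgfra, Col1a1 and Foxj1), while Drd1, a dopamine receptor of neurons, had a lower level. These genes had FDR values of 0.536 to 0.866. Of all genes tested in experiment 1, 3% were higher and 2.58% lower with an unadjusted P-value under 0.05. The summed level of the 36 microglia genes was 953 to 1036 CPM in water rats, 907 to 1005 CPM in EtOH rats, 739.9 to 1350 CPM after water gavage and 793 to 962 CPM after EtOH gavage.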

How the data were processed

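PolyA+ RNA from the NAc of 22 rats was sequenced as paired reads. Per the labels and the methods of the study, the authors aligned the reads to Rnor_6.0 with TopHat2 2.0.13 and counted them with HTSeq (0.5.3p3 and 0.6.0 are named), and deposited the raw count of each gene in each rat. The HTSeq options and the annotation release are not given in the sources used here. Multi-mapped reads are left out of gene counts. The library kit of experiment 1 was not strand-specific, so reads of a gene and of an overlapping antisense gene cannot be told apart there. Groups and replicate numbers come from the sample labels, and doses and weeks from the methods. Rats are separate animals.

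Each experiment was fitted separately with edgeR 4.0.16 in R 4.3.3 (TMM, quasi-likelihood test, Benjamini-Hochberg over all tested genes), on genes with a base mean (DESeq2 size factors) above the median of listed genes, which was 43.6 in experiment 1 and 66.4 in experiment 2. CPM were computed on the TMM-scaled library of tested genes, and log2 CPM with a prior count of 2. The SE was derived from the F statistic. Exact permutation tests for single genes were two-sided and unadjusted. Alternatives were DESeq2 1.42.0, its size factors in edgeR, other filters, all 4 groups in one fit, a replicate block, the newer mode of glmQLFit, each rat left out in turn and, added after the data were seen, the share of reads outside genes as a covariate. The fits were tested on simulated data. Per-rat values were given for microglia genes with an unadjusted P-value under 0.05, those with the 3 lowest P-values in each experiment and a list of 16 markers; other lists name only genes with an unadjusted P-value under 0.05 or the lowest P-value. Cd53, Mpeg1, Selplg, the RT1 genes and Acsm5 were described by rat or range after their values were seen. The members and lists were chosen with earlier results of these data known. No 2 rats of a group agreed within sampling noise (lowest chi-square per degree of freedom 2.67). Samples with the same number did not deviate together in every pair (correlations of -0.125 to 0.14 in experiment 1 and -0.76 to 0.835 in experiment 2), so rats were treated as unpaired.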

Additional observations from a re-analysis of the deposited data

Results flagged for a closer look

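The values scanned were the level of each microglia gene, the score and the share of reads outside genes, in each group. In 152 such sets of rats, the highest or lowest rat was far from the others by Dixon's criterion in 11, and about 1 in 20 sets (7.6) would be by chance. In water gavage rat 3, Cd74 was 62.3 CPM (the other 5 rats 0.53 to 9.46). In water gavage rat 2, Mpeg1 was 4.6 CPM (others 110.04 to 164.65), and in water rat 4 it was 115.57 CPM (others 61.92 to 73.16). In water gavage rat 1, Cd86 was 3.47 CPM (others 0.39 to 1.21), and in EtOH gavage rat 4, Trem2 was 11.68 CPM (others 0.16 to 3.91). In EtOH rat 1, Itgam was 26.05 CPM (others 15.69 to 17.67) and Laptm5 was 54.16 CPM (others 35.6 to 39.02). In water rat 5, Itgam was 33.56 CPM (others 19.92 to 23.65). In water rat 2, Csf1r was 187.21 CPM (others 159.52 to 165.57) and Blnk was 10.84 CPM (others 6.92 to 7.9). In water rat 3, Vav1 was lowest at 1.54 CPM (others 2.73 to 2.98).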

How the results depend on the processing

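Under every alternative, and with any rat left out, 0 genes had an FDR under 0.05. Of 284 values recomputed under alternatives other than leaving out a rat, 266 were classed as the same, 11 counts moved by over 1.5 times and 7 values reversed. The cause was not tested. Single genes were the same if they kept direction and side of the threshold, and counts if they stayed within 1.5 times. Medians and score differences were the same if they shifted by less than the SD within groups. This wide rule includes the median of experiment 2 with the covariate, -0.05 instead of -0.27. The count of microglia genes with an unadjusted P-value under 0.05 in experiment 1 (2) was 1 in DESeq2 (632 of 14024 genes). It was 0 with all 4 groups in one fit (79 of all genes instead of 483) and 4 in the newer mode of glmQLFit (478 of all genes). In experiment 2 (1) it was 2 in DESeq2 (315 of 14121 genes) and 2 without a filter (286 of 14121 genes). It was 4 with all 4 groups in one fit (623 of all genes instead of 115) and 5 with the replicate block (414 of all genes). The number of microglia genes below 0 was 19 in experiment 1 and 28 in experiment 2, of 36 tested, both in DESeq2 and without a filter, where more genes were tested. Of all genes, 49.9% and 49.6% were below 0 in DESeq2, and 49.4% and 49.6% without a filter. With the replicate block, the fold change of Itgam in experiment 2 was -0.037 and that of Mpeg1 0.012. The numbers did not pair the rats, and 2 of 10 and 1 of 12 rats correlated best with the rat of the same number. With the share of reads outside genes as a covariate, fold changes in experiment 2 reversed for Inpp5d (0.17), Cx3cr1 (0.058), P2ry12 (-0.029), Csf1r (0.006) and Aif1 (0.033). With each rat left out in turn, the count of microglia genes with an unadjusted P-value under 0.05 was 0 to 4 in experiment 1 and 0 to 5 in experiment 2. Of all genes, 378 to 739 and 30 to 776 had such a P-value. In these fits 7 to 11 and 14 to 17 microglia genes were below 0, against 49.4 to 51.3% and 49.2 to 51.6% of all genes. The median log2 fold change of the microglia genes was -0.07 to 0.02 and -0.36 to -0.16, and the score difference -0.09 to 0.07 and -0.63 to -0.31. Reversals occurred for Aif1 (-0.08 to 0.041) and C1qb (-0.13 to 0.009) in experiment 1 and for Inpp5d (-0.26 to 0.031), Itgam (-0.13 to 0.26) and P2ry12 (-0.12 to 0.20) in experiment 2.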
